A study of Mus musculus with 20 samples.

Results

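The genes described here code for the signal that keeps the oocyte of a follicle in meiotic arrest and for the channels through which that signal passes. They are 9 of the 55487 gene identifiers in the deposited count files, namely Nppc, Npr2, Npr3, Gja1, Gja4, Impdh1, Impdh2, Pde4d and Kitl, and each was found by its GENCODE M21 symbol. They were measured in granulosa cells (GCs) of 20 female mice, 5 in each of 4 groups: ctrl in estrus, ctrl in diestrus, FL1 in estrus and FL1 in diestrus. FL1 is a mouse line selected over many generations for high fertility, and ctrl is an unselected line that descends from the same founders. The mice were 77 ± 5 days old, received no treatment named in the labels, and were staged by vaginal smear. As the methods of the study describe, GCs came from the 7 to 10 largest follicles of a mouse, and the oocyte with its cumulus cells was left out. Each library is 1 mouse with its follicles pooled. A line difference is therefore a difference between these breeding lines as wholes.

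C-type natriuretic peptide, the product of Nppc, is secreted by the mural GCs that line the follicle wall. It binds the receptor guanylyl cyclase encoded by Npr2, which makes cyclic GMP, while the receptor encoded by Npr3 removes the peptide without making cyclic GMP. Cyclic GMP diffuses through gap junctions between the GCs (mainly built of the connexin encoded by Gja1) and between cumulus cells and the oocyte (mainly the connexin encoded by Gja4). In the oocyte it inhibits a phosphodiesterase, so that cyclic AMP stays high and meiosis stays arrested until luteinizing hormone (LH) acts on the mural GCs. IMP dehydrogenase, encoded by Impdh1 and Impdh2, is the rate-limiting enzyme of guanine nucleotide synthesis and so supplies GTP. Pde4d encodes a phosphodiesterase of cyclic AMP, and Kitl encodes the Kit ligand, a growth factor of GCs whose receptor sits on the oocyte.

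The libraries read only the 3′ end of transcripts. Long and short transcripts give about 1 tag each, so levels can be set side by side between genes. Between 5446576 and 8257041 reads per mouse were counted on genes. Levels are given as CPM, the reads of a gene relative to the library size of its mouse, scaled by the TMM normalization of the 20 libraries. Fold changes are log2 values of edgeR's quasi-likelihood fit with their standard error (SE), as FL1 over ctrl or diestrus over estrus. The p-values were adjusted (Benjamini-Hochberg) over every gene tested in a comparison, and a gene is called where the adjusted p does not exceed 0.05. The 9 granulosa cell markers were counted in these libraries, with summed levels of 5080 to 9489 CPM in estrus and 8170 to 13879 CPM in diestrus. Markers of other cells were present too. The 12 oocyte markers summed to between 58.8 and 578 CPM, and the 7 stroma and smooth muscle markers to between 191 and 2204 CPM. The 3 luteal cell markers summed to 138 to 413 CPM in ctrl and 1287 to 4064 CPM in FL1 mice in estrus. In diestrus these sums were 259 to 578 CPM and 316 to 1902 CPM. Sums of the 6 immune cell markers in estrus were 15.1 to 42.3 CPM in ctrl and 35.4 to 98.5 CPM in FL1 mice. Those of the 5 endothelial cell markers reached 83.5 CPM and of the 4 red blood cell markers 1599 CPM. The 4 theca cell markers summed to between 60.9 and 317 CPM. Of the theca cell markers Insl3 was under 1 CPM in every mouse, while Ptch1 had group means of 58.5 to 88.9 CPM. In bulk GCs, fewer cells of a type and less RNA per cell cannot be told apart.

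Gja1 was by far the strongest expressed of the 9 genes. Its mean over the 20 mice was 5291 CPM, which placed it at rank 9 of the 14938 genes with enough counts. Impdh1 followed with 80.0 CPM, Npr2 with 56.9 CPM, and Nppc and Gja4 with 54.7 CPM each. The levels of these 4 genes overlapped among mice, from 48.6 to 124 CPM for Impdh1 and from 9.43 to 154 CPM for Nppc. Kitl had 21.3 CPM. Impdh2 with 3.34 CPM, Npr3 with 3.003 CPM and Pde4d with 0.953 CPM stood at the low end, and 1, 4 and 10 of the 20 mice, respectively, had no count of them. A count of 0 allows up to 3 counts, which is 0.344 to 0.547 CPM depending on the mouse (counting error only).

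**Figure D1:**
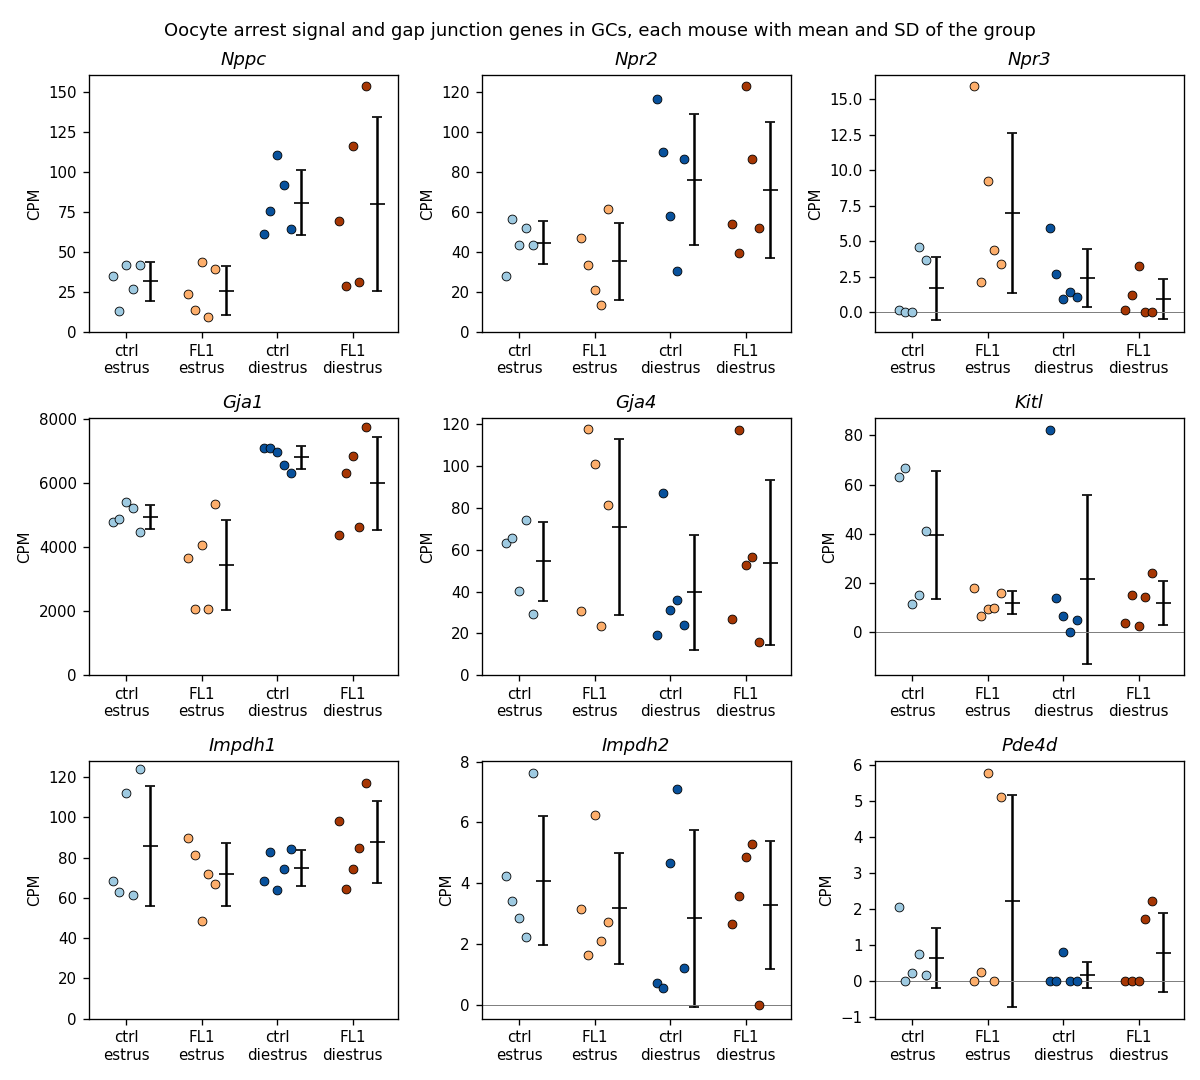
CPM of the 9 genes in GCs of each mouse (points), by line and stage, with the mean and SD of the 5 mice of a group beside them. Nppc and Gja1 of all 5 ctrl mice in diestrus lie above all 5 ctrl mice in estrus, and the y axis differs between genes.

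The stage of the cycle was compared first, within each line and over both lines. Nppc and Gja1 were stronger expressed in diestrus than in estrus over both lines, and Nppc also within ctrl mice. The receptor gene Npr2 was higher in diestrus by a log2 value between those of Gja1 and Nppc, but did not pass the threshold. The other genes tested differed by less than the test could separate from the spread between mice.

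Nppc (chromosome 1, 86666291 to 86670571, minus strand, GRCm38) had 34.9, 13.1, 42.0, 26.9 and 42.2 CPM in the 5 ctrl mice in estrus. In ctrl mice in diestrus the values were 61.4, 76.0, 110.7, 92.2 and 64.6 CPM. Every ctrl mouse in diestrus was above every ctrl mouse in estrus, with means of 81.0 ± 20.6 and 31.8 ± 12.2 CPM (SD, n = 5), a ratio of 2.55. FL1 mice had 23.6, 13.8, 44.1, 9.43 and 39.3 CPM in estrus. In diestrus FL1 mice had 69.4, 29.1, 117, 31.6 and 154 CPM. Here 3 of 5 diestrus mice were above all estrus mice, while the other two lay within their range, and the means were 80.1 ± 54.4 and 26.0 ± 15.3 CPM (SD, n = 5). In ctrl mice the log2 fold change was 1.34 (SE 0.30, edgeR adjusted p = 0.0311). In FL1 mice it was 1.61 (SE 0.48, edgeR adjusted p = 0.193), so the smaller of these changes was called and the larger was not. The FL1 change was called with the replicate number as a block (1.54, edgeR adjusted p = 0.0293). It was also called with no filter on low counts (1.605, edgeR adjusted p = 0.000951). Over both lines the log2 fold change was 1.47 (SE 0.30, edgeR adjusted p = 0.00479). The call in ctrl mice was lost in 7 of 10 fits that left out 1 mouse (edgeR adjusted p up to 0.101) and with all 20 mice in one fit (edgeR adjusted p = 0.134), while the call over both lines held in 20 of 20 such fits. The difference between the lines in this stage effect, the interaction, was 0.28 (SE 0.59, edgeR adjusted p = 1.00).

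Gja1 (chromosome 10, 56377330 to 56402513, plus strand) had 4773, 4859, 5403, 5228 and 4473 CPM in ctrl mice in estrus. In diestrus ctrl mice had 7101, 7072, 6967, 6547 and 6293 CPM. The groups did not overlap, and their means were 6796 ± 359 and 4947 ± 371 CPM (SD, n = 5), a ratio of 1.37. FL1 mice in estrus had 3655, 2054, 4063, 2078 and 5348 CPM. FL1 mice in diestrus had 4387, 6312, 6849, 4617 and 7737 CPM. The FL1 groups overlapped, since the highest estrus mouse was above the lowest diestrus mice, and the SD of both FL1 groups was larger than in ctrl mice (1401 CPM in estrus and 1445 CPM in diestrus). Over both lines the log2 fold change was 0.61 (SE 0.16, edgeR adjusted p = 0.0260). Within ctrl mice it was 0.45 (SE 0.14, edgeR adjusted p = 0.153) and within FL1 mice 0.79 (SE 0.27, edgeR adjusted p = 0.295), neither of which was called. DESeq2 called the change in ctrl mice at an adjusted p of 0.00146. Without FL1 replicate 5 in diestrus the change over both lines was 0.55 and was not called (edgeR adjusted p = 0.0605).

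Npr2 (chromosome 4, 43631935 to 43651244, plus strand) had 28.1, 56.6, 43.7, 52.1 and 43.4 CPM in ctrl mice in estrus. In diestrus the ctrl values were 116.4, 89.9, 57.9, 30.8 and 86.6 CPM, so 4 of 5 mice were above all estrus mice and 1 was at the low end of their range. FL1 mice had 46.9, 33.8, 21.1, 13.5 and 61.4 CPM in estrus. In diestrus they had 53.9, 39.4, 123, 86.5 and 52.0 CPM, and all 5 were above the estrus median of 33.8 CPM. Over both lines its log2 fold change was 0.88 (SE 0.26, edgeR adjusted p = 0.0582). It was 0.76 (SE 0.31, edgeR adjusted p = 0.317) in ctrl mice and 1.00 (SE 0.39, edgeR adjusted p = 0.374) in FL1 mice. DESeq2 called the change over both lines at an adjusted p of 0.0309, with a log2 fold change of 0.88.

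Counted over the genes, 2 of the 8 tested over both lines were called, both higher in diestrus, against 3.47% of all 13857 genes tested there. In ctrl mice 1 of 7 was called, against 1.36% of all genes. The groups did not overlap for 2 of these 7, Nppc and Gja1, against 3.66% of all genes tested in ctrl mice. In FL1 mice edgeR called 0 of 8, against 0.221% of all genes, and DESeq2 and limma-voom called 0 as well. The fits with the replicate block and with no filter on low counts each called 1, Nppc. In the main fit 4 had an unadjusted p under 0.05 (9.48% of all genes had). Npr3 is 1 of these 4 and passed the filter on low counts only through FL1 mice in estrus, where it was highest. None of the 8 was without overlap in FL1 mice, against 2.42% of all genes. The median log2 fold change over both lines was -0.11 for the 8 genes and 0.0064 for all genes tested.

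**Figure D2:**
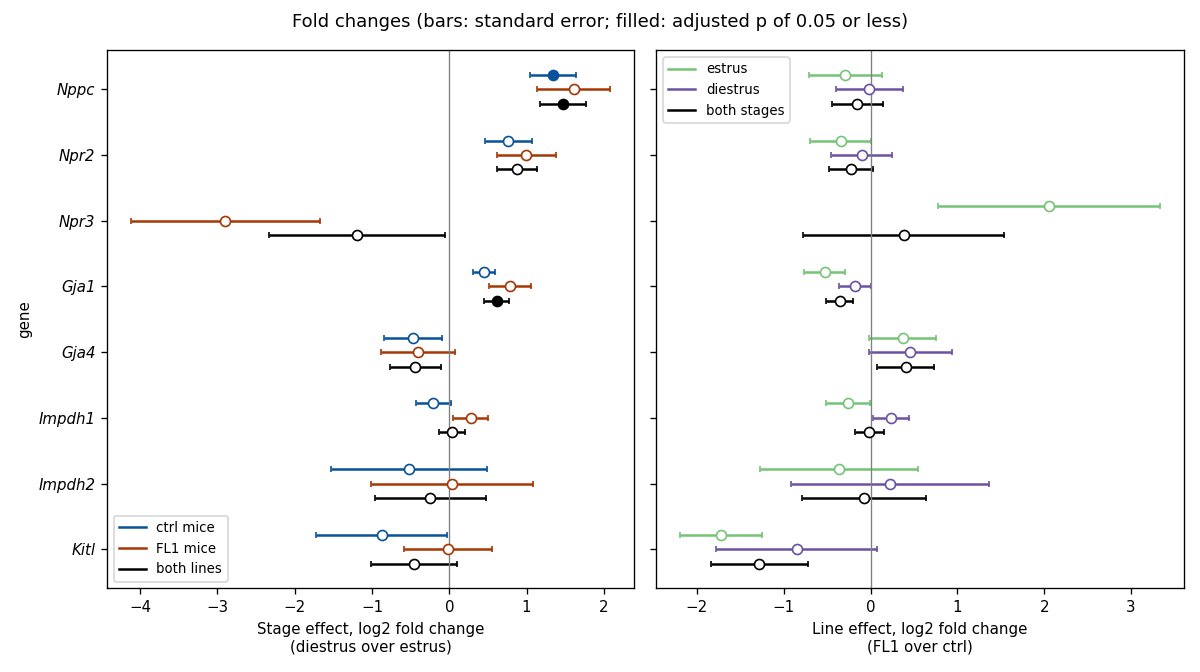
Log2 fold changes of the 8 genes tested in at least 1 of these comparisons, with the stage effect (diestrus over estrus, left) and the line effect (FL1 over ctrl, right); bars are standard errors, filled points were called, and comparisons in which a gene had too few counts carry no point. Filled points are Nppc in ctrl mice and over both lines, and Gja1 over both lines; no line effect is filled.

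The summed level of the GC markers, of which Inha and Inhba make up the most, moved with Nppc and Gja1. Across the 20 mice, which share their stage and line, log2 CPM of Nppc and the log2 summed level of the 9 granulosa cell markers had a Pearson r of 0.80 (Spearman rho 0.79, r 0.82 without the 2 mice farthest from the median Nppc level). Within the groups, after the group means were taken off, r was 0.66. For Gja1 the values were 0.70 (rho 0.68, 0.67 without 2 mice) and 0.56 within groups. Of these 9 markers Fshr, Cyp19a1 and Inhba were called higher in diestrus over both lines. The means of Inha, Nr5a2 and Esr2 were higher in diestrus in both lines without a call, those of Foxl2 and Hsd17b1 were lower in diestrus in ctrl and higher in FL1 mice, and that of Amh was lower in both (7.71 and 1.00 CPM in ctrl, 5.10 and 2.10 CPM in FL1 mice, in estrus and diestrus). Markers of other cells were called higher in diestrus over both lines as well. Cyp17a1, a theca cell marker, had means of 10.6 ± 1.29 and 95.6 ± 85.0 CPM in ctrl and 11.2 ± 8.50 and 45.4 ± 32.2 CPM in FL1 mice. It was also called within ctrl mice. Of the other theca cell markers, Gli1 had lower means in diestrus in both lines (2.45 and 1.68 CPM in ctrl, 3.65 and 1.30 CPM in FL1 mice). Ptch1 was lower in diestrus in ctrl (88.9 and 82.3 CPM) and higher in FL1 mice (58.5 and 75.7 CPM). Slc38a3, a cumulus cell marker, had 49.2 ± 15.6 and 97.9 ± 37.2 CPM in ctrl and 22.7 ± 11.2 and 105.1 ± 71.6 CPM in FL1 mice (SD, n = 5). The median log2 stage effect over both lines was 0.12 for the 3 theca and -0.10 for the 3 cumulus cell markers tested. The part of theca and cumulus cell RNA in the stage effects of Nppc and Gja1 was not tested. The stroma and smooth muscle markers moved the other way, with sums of 751 to 1820 CPM in ctrl mice in estrus and 286 to 1059 CPM in diestrus, and 1 of the 7, Col3a1, was called lower. In FL1 mice these sums were 1262 to 2204 CPM in estrus and 191 to 2184 CPM in diestrus. With the summed granulosa marker level as a covariate, the stage effect over both lines was 0.80 for Nppc (edgeR adjusted p = 0.245) and 0.37 for Gja1 (edgeR adjusted p = 0.457). With the stroma level as a covariate it was 1.38 for Nppc (edgeR adjusted p = 0.0852) and 0.57 for Gja1 (edgeR adjusted p = 0.260). Neither gene was called in these fits, which called 91 and 86 of all genes, against 481 without a covariate. They were added after the marker levels had been seen. Since markers in both sums were themselves called for stage, these fits cannot separate stage from marker level.

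**Figure D3:**
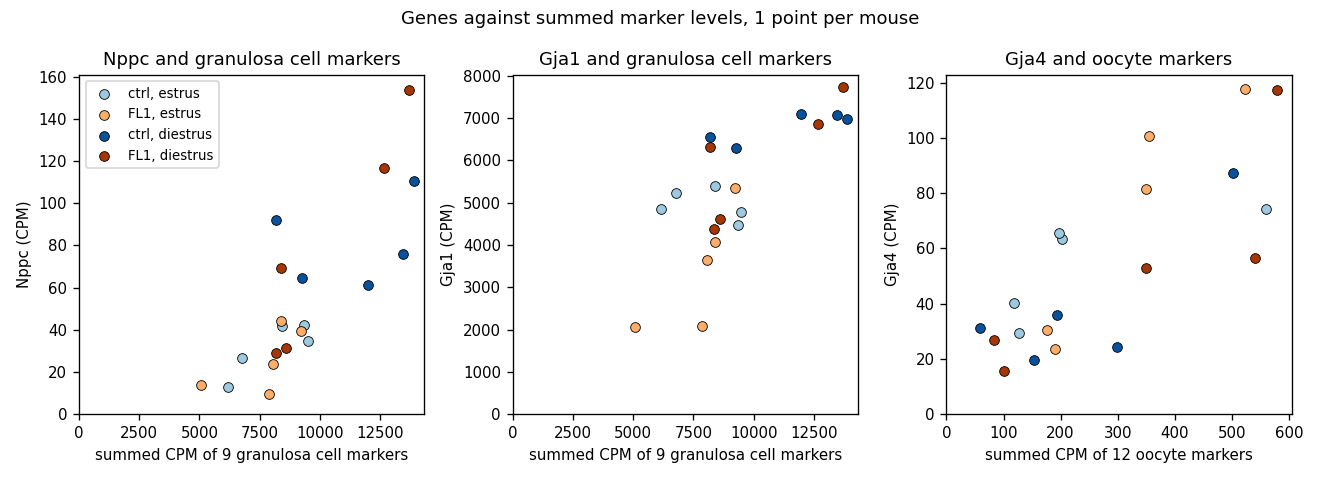
CPM of Nppc and Gja1 against the summed CPM of 9 granulosa cell markers, and of Gja4 against the summed CPM of 12 oocyte markers, with 1 point per mouse and colors for line and stage. In each panel the mice with more of the markers have, on the whole, more of the gene.

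The start regions of Nppc and Gja1 are shown because both genes were called for stage. They are the 250 bases before and the 50 after the RefSeq start site on GRCm38.p6, written in the direction of the gene, and capitals mark matches to 5 motifs searched on both strands. The motifs were the core of the cyclic AMP response element (TGACG), the AP-1 site (TGANTCA), the site of NR5A nuclear receptors (AAGGTCA), the GC box (GGGCGG) and the TATA box (TATAAA).
Nppc, chr1:86670524-86670823, minus strand: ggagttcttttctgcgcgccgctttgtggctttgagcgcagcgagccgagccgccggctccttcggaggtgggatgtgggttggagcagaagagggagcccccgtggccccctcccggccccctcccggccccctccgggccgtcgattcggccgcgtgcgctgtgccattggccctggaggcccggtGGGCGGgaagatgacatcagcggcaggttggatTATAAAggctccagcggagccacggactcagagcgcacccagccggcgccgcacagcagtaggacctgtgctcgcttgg
Gja1, chr10:56377050-56377349, plus strand: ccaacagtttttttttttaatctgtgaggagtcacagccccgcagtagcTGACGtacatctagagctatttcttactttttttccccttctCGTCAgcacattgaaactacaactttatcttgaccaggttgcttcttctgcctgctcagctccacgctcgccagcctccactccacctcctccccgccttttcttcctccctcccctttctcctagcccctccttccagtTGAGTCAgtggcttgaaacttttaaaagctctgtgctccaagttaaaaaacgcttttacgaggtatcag
The Nppc region held a GC box at -62 and a TATA box at -29 from the start site, letters that 35.7% and 13.6% of the 32851 mouse start regions hold somewhere. The Gja1 region held TGACG at -201 as printed and at -159 on the opposite strand, and an AP-1 site at -19. TGACG was found in 20.8% and the AP-1 letters in 7.81% of all start regions. The regions shared none of the 5 motifs, and AAGGTCA, present in 4.72% of all start regions, was in neither. These matches describe the letters only.

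The genes with the pattern most like that of the arrest signal genes were taken from the 20 mice by the highest Pearson r of log2 CPM, as a description. Nppc was closest to Tmtc2 (r 0.83, rho 0.84), to Fst (r 0.83, rho 0.79), which encodes the activin-binding protein follistatin, and to Pparg (r 0.83, rho 0.81), which encodes a nuclear receptor. Without the 2 mice farthest from the median of Nppc, r was 0.83, 0.77 and 0.76, and within groups it was 0.63, 0.77 and 0.67. All of them were called higher in diestrus over both lines, with log2 fold changes of 1.06, 1.06 and 0.93. Their choice by likeness to Nppc over the same mice favors such calls. Gja1 was closest to Hltf (r 0.93, rho 0.84), Car14 (r 0.86, rho 0.77), which encodes a carbonic anhydrase, and Arhgef28 (r 0.85, rho 0.78). Car14 and Arhgef28 were called higher in diestrus over both lines (edgeR adjusted p = 0.00918 and 0.00243), and Hltf was not (edgeR adjusted p = 0.0718). For Npr2 the closest genes were Ckap2 (r 0.84, rho 0.72), Tpra1 (r 0.82, rho 0.70) and Brd2 (r 0.81, rho 0.72), none of which was called for stage. Without the 2 most distant mice the r of these 6 genes fell to values between 0.63 for Tpra1 and 0.82 for Hltf. Among the members themselves, Nppc and Gja1 had an r of 0.80 (rho 0.70, 0.70 without 2 mice, 0.64 within groups). Npr2 and Nppc had an r of 0.49 (rho 0.41, 0.36 without 2 mice, 0.11 within groups).

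The lines were compared next. EdgeR called none of the genes tested between FL1 and ctrl mice in estrus, in diestrus or over both stages, while DESeq2 and the fit with no filter on low counts called Kitl in estrus. Pde4d had too few counts for these comparisons, and Npr3 for that in diestrus. The lowest p in estrus was that of Kitl, which was lower in FL1 mice, and the second lowest that of Gja1, also lower in FL1 mice.

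Kitl (chromosome 10, 100015630 to 100100416, plus strand) had 63.0, 66.7, 11.6, 15.2 and 41.3 CPM in ctrl mice in estrus. FL1 mice in estrus had 17.9, 6.76, 9.54, 9.85 and 16.0 CPM. All 5 FL1 mice were below the ctrl median of 41.3 CPM, and 3 of 5 were below all ctrl mice. The means were 39.5 ± 25.8 CPM in ctrl mice and 12.01 ± 4.73 CPM in FL1 mice (SD, n = 5). The log2 fold change was -1.72 (SE 0.47, edgeR adjusted p = 0.105), and DESeq2 called it at an adjusted p of 0.0282. In diestrus ctrl mice had 82.3, 14.0, 6.69, 0.182 and 4.96 CPM, and FL1 mice had 3.75, 15.3, 2.6, 14.4 and 24.1 CPM. The lowest of these ctrl values was a single read, and the ctrl mouse with 82.3 CPM was far above the other 4. The line effect in diestrus was -0.85 (SE 0.93, edgeR adjusted p = 1.00), and without this ctrl mouse, replicate 1, it was 0.89. Over both stages it was -1.28 (SE 0.56, edgeR adjusted p = 0.361), or -0.56 without that mouse. The stage effect in ctrl mice was -0.87 (SE 0.85, edgeR adjusted p = 0.792) with and -2.6 (edgeR adjusted p = 0.115) without it.

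Gja1 was lower in 4 of 5 FL1 mice in estrus than in all ctrl mice, at 2054 to 4063 CPM against 4473 to 5403 CPM, while the remaining FL1 mouse had 5348 CPM. In estrus the log2 fold change was -0.53 (SE 0.24, edgeR adjusted p = 0.415). In diestrus it was -0.18 (SE 0.19, edgeR adjusted p = 1.00). The luteal cell marker sums of all FL1 mice in estrus were above those of all ctrl mice in estrus. The part of other cells in the line effects of Gja1 and Kitl was not tested. For Nppc the line effect was -0.29 (SE 0.42, edgeR adjusted p = 0.895) in estrus and -0.01 (SE 0.38, edgeR adjusted p = 1.00) in diestrus, and for Npr2 -0.34 (SE 0.35, edgeR adjusted p = 0.829) and -0.10 (SE 0.35, edgeR adjusted p = 1.00).

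Npr3 (chromosome 15, 11839896 to 11907287, minus strand), the clearance receptor gene, had low counts. FL1 mice in estrus had 15.9, 2.13, 9.22, 4.36 and 3.40 CPM and ctrl mice in estrus 0.146, 0, 0, 4.58 and 3.64 CPM. In diestrus ctrl mice had 5.90, 2.68, 0.936, 1.46 and 1.07 CPM, and FL1 mice 0.156, 1.24, 3.25, 0 and 0 CPM. Within FL1 mice 4 of 5 diestrus mice were below all estrus mice. The stage effect in FL1 mice was -2.90 (SE 1.22, edgeR adjusted p = 0.448) and the line effect in estrus 2.06 (SE 1.28, edgeR adjusted p = 0.617). Npr3 passed the filter on low counts only in comparisons that include FL1 mice in estrus, the group in which it was highest. The lncRNA gene Gm5144 overlaps Npr3 on the other strand, with 2.40 reads per mouse on average against 19.4 for Npr3.

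Gja4 (chromosome 4, 127311421 to 127314039, minus strand) ranged from 29.3 to 74.3 CPM in ctrl and from 23.5 to 118 CPM in FL1 mice in estrus. In diestrus the range was 19.5 to 87.4 CPM in ctrl and 15.7 to 117 CPM in FL1 mice. All groups overlapped. The line effect over both stages was 0.41 (SE 0.33, edgeR adjusted p = 0.749) and the stage effect over both lines -0.44 (SE 0.33, edgeR adjusted p = 0.603). The oocyte markers, none of which was absent from all mice, moved with this gene. Across the 20 mice log2 CPM of Gja4 and the log2 summed level of the 12 oocyte markers had an r of 0.75 (rho 0.76, 0.70 without 2 mice, 0.76 within groups). In FL1 mice the highest Gja4 level in estrus (118 CPM) came with an oocyte sum of 523 CPM, and the highest in diestrus (117 CPM) with 578 CPM. In ctrl mice the highest level in estrus (74.3 CPM) came with 559 CPM and in diestrus (87.4 CPM) with 502 CPM. No oocyte marker was called between the lines or stages. Between the lines in estrus they went both ways, with a median of 95.2 CPM in FL1 and 35.8 CPM in ctrl mice for the growth factor gene Gdf9, and of 63.2 and 71.1 CPM for Oosp1. The part of oocyte RNA in the Gja4 values was not tested.

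Impdh1 (chromosome 6, 29200434 to 29216364, minus strand) overlapped between all groups, at 61.3 to 124 CPM in ctrl and 48.6 to 89.9 CPM in FL1 mice in estrus, and 64.1 to 84.2 CPM and 64.4 to 117 CPM in diestrus. Its line effect over both stages was -0.01 (SE 0.17, edgeR adjusted p = 0.993) and its stage effect over both lines 0.03 (SE 0.17, edgeR adjusted p = 0.964). Impdh2 (chromosome 9, 108560286 to 108565584, plus strand) had between 0 and 7.63 CPM. Its reads are uncertain, because 462 bases within the last 500 of its transcript match the pseudogene Impdh2-ps at 99.8% identity. Reads with several matches were not counted. The 20 mice together had 434 reads on Impdh2 and 335 on Impdh2-ps. Ndufaf3 overlaps Impdh2 on the other strand and had 222 reads per mouse on average, against 21.7 for Impdh2. The strand setting of the counting was not given in the sources used here.

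Pde4d (chromosome 13, 108449948 to 109953461, plus strand) had 120 reads in all 20 mice together and was tested in the interaction only. Its highest values were 5.78 and 5.10 CPM in 2 FL1 mice in estrus, and 10 mice had no read. Within its borders lies the pseudogene Rps3a3 on the same strand, with 20.95 reads per mouse on average against 6 for Pde4d.

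In estrus edgeR called 0 of 8 genes between the lines, against 0.769% of all 13007 genes tested. Here 2 had an unadjusted p under 0.05 (10.7% of all genes had), limma-voom called 0, and DESeq2 called 1 (Kitl), among 425 of all genes. In diestrus edgeR called 0 of 7, against 0.248% of all genes, with none at an unadjusted p under 0.05 (5.56% of all genes) and 0 calls by DESeq2 and limma-voom. Over both stages edgeR called 0 of 8, against 1.17% of all genes, with 2 at an unadjusted p under 0.05 (Kitl and Gja1, against 11.3% of all genes) and 0 calls by DESeq2 and limma-voom. No gene was without overlap between the lines in estrus, against 3.56% of all genes, or in diestrus, against 1.58%. The interaction of line and stage gave 0 calls among the 9 by edgeR, DESeq2 and limma-voom, and edgeR called 0% of all 14938 genes and DESeq2 1 gene. None of the 9 had an unadjusted p under 0.05 there, against 4.75% of all genes.

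Genes of 5 lists that act around this pathway were measured as well. Of the 13 genes of guanine nucleotide synthesis, all were tested, and Gmpr and Prps2 were weaker expressed in FL1 mice. Of 25 other connexins, pannexins and junction partners 7 were tested in each stage, and Gjc1 was weaker expressed in FL1 mice over both stages. Of 14 other phosphodiesterases of cyclic AMP, Pde7b was stronger expressed in diestrus in ctrl mice. Of 10 genes of the LH and EGF-like response that ends the arrest, Lhcgr was stronger expressed in FL1 mice in estrus. None of the 15 genes of natriuretic peptide and cyclic GMP signaling was called in any comparison, and 8 or 9 of them were tested. Of all genes tested, 0.769% were called for line in estrus and 1.17% for line over both stages. For stage 1.36% were called in ctrl mice and 3.47% over both lines.

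Gmpr encodes GMP reductase, which turns GMP back into IMP and so works against IMP dehydrogenase. It had 114.8, 77.6, 121, 71.3 and 93.3 CPM in ctrl mice in estrus and 29.0, 16.9, 43.8, 34.9 and 43.9 CPM in FL1 mice in estrus. These groups did not overlap. In diestrus ctrl mice had 33.1, 56.6, 45.2, 48.3 and 23.7 CPM and FL1 mice 17.5, 22.4, 13.0, 37.3 and 23.3 CPM. Gmpr was thus highest in ctrl mice in estrus, where the mean of 95.5 ± 21.9 CPM (SD, n = 5) was 2.84 times that of FL1 mice and 2.31 times that of ctrl mice in diestrus. Between the lines the log2 fold change was -1.51 (SE 0.27, edgeR adjusted p = 0.0101) in estrus and -1.19 (SE 0.22, edgeR adjusted p = 0.00234) over both stages. The stage effect was -1.21 (SE 0.25, edgeR adjusted p = 0.0240) in ctrl mice and -0.91 (SE 0.22, edgeR adjusted p = 0.0165) over both lines. The call in ctrl mice was lost in 4 of 10 fits that left out a mouse (adjusted p up to 0.0735). With the stroma or granulosa level as a covariate the call over both lines was lost (adjusted p = 0.376 and 0.0544). The covariate fits cannot separate stage from marker level, since both marker sums hold genes called for stage.

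Prps2, which encodes an enzyme that makes the ribose phosphate for purine synthesis, had means of 87.0 ± 27.1 CPM in ctrl and 43.6 ± 14.7 CPM in FL1 mice in estrus. In diestrus the means were 64.3 ± 27.5 and 32.1 ± 7.96 CPM (SD, n = 5). The line effect over both stages was -0.996 (SE 0.22, edgeR adjusted p = 0.0126), and it had the same size in each stage. Within a stage it was not called (edgeR adjusted p = 0.135 in estrus and 0.458 in diestrus). Gjc1, which encodes another connexin, had 25.3, 38.4, 15.3, 15.4 and 21.7 CPM in ctrl mice and 6.92, 2.38, 4.69, 0.281 and 10.0 CPM in FL1 mice in estrus. In diestrus it had 31.1, 44.4, 26.6, 59.2 and 14.9 CPM in ctrl and 14.2, 7.55, 6.99, 5.13 and 0 CPM in FL1 mice. In both stages every ctrl mouse was above every FL1 mouse. The line effect of Gjc1 over both stages was -2.31 (SE 0.49, edgeR adjusted p = 0.0102), while in estrus and diestrus alone it was not called (edgeR adjusted p = 0.115 and 0.359). Over both stages the 3 luteal cell markers and 1 of 6 immune cell markers, Lyz2, were called higher in FL1 mice. Their part in the line effects of Gmpr, Prps2 and Gjc1 was not tested.

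**Figure D4:**
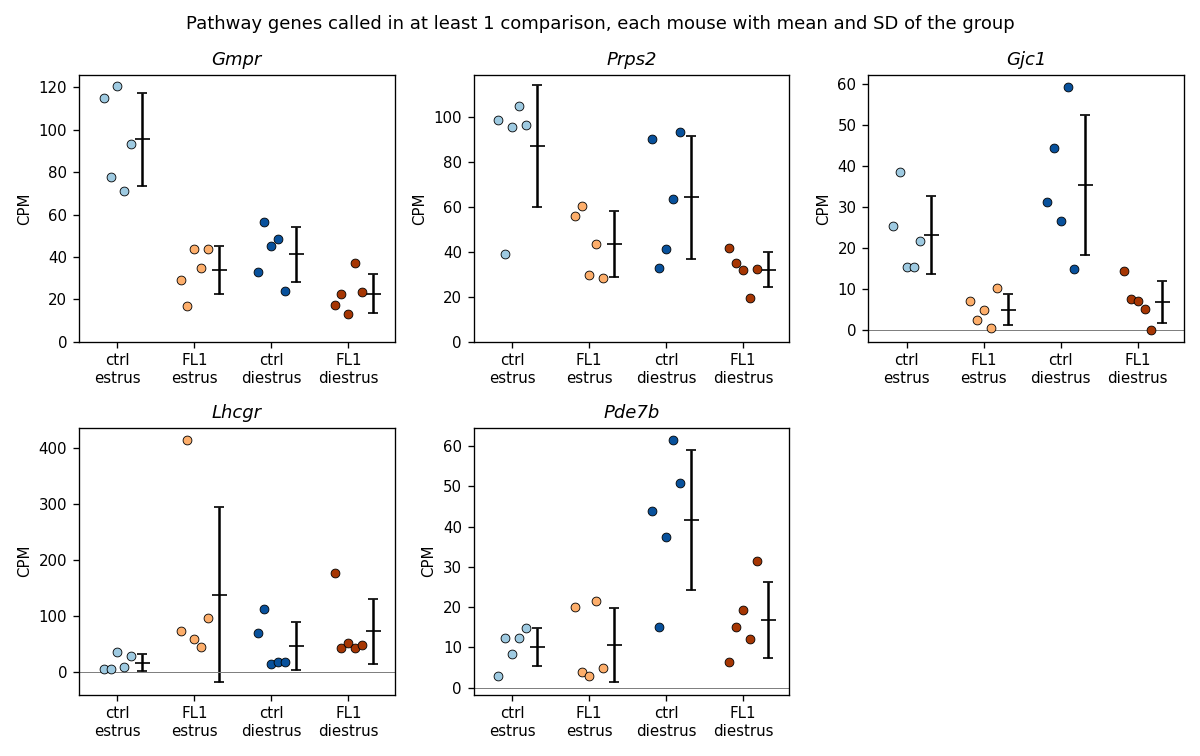
CPM of the 5 genes of the surrounding lists that were called in at least 1 comparison, in GCs of each mouse (points), by line and stage, with the mean and SD of the 5 mice beside them. In both stages all ctrl mice lie above all FL1 mice for Gjc1, and in estrus for Gmpr.

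Lhcgr, the LH receptor gene, had 4.97, 4.82, 36.0, 9.01 and 29.7 CPM in ctrl mice and 74.3, 415, 58.9, 44.2 and 97.4 CPM in FL1 mice in estrus. All FL1 mice were above all ctrl mice, and 1 FL1 mouse, replicate 2, was far above the others. The log2 fold change was 3.02 (SE 0.65, edgeR adjusted p = 0.0327), and without that mouse it was 2.02 (edgeR adjusted p = 0.105). The call was also lost without ctrl replicates 1, 2 or 4 (adjusted p = 0.0738, 0.0873 and 0.0803) and with limma-voom (adjusted p = 0.0618), robust estimation (adjusted p = 0.214) or the replicate block (adjusted p = 0.0820). The luteal cell marker sums in estrus were also higher in FL1 mice, at 1287 to 4064 CPM against 138 to 413 CPM in ctrl mice. Within FL1 mice in estrus, replicate 2 had a sum of 2377 CPM. The highest sum, 4064 CPM, was that of replicate 3, with 58.9 CPM of Lhcgr. The part of luteal cells in the Lhcgr result was not tested. Of the genes that LH turns on in GCs, Areg, Ereg, Ptgs2 and Pgr had group means of at most 2.49 CPM. Pde7b, a phosphodiesterase of cyclic AMP, had 2.78, 12.3, 8.38, 12.4 and 14.9 CPM in ctrl mice in estrus and 43.8, 15.03, 37.5, 61.6 and 50.8 CPM in ctrl mice in diestrus. These groups did not overlap. The log2 fold change was 2.03 (SE 0.44, edgeR adjusted p = 0.0293) in ctrl mice and 0.65 (SE 0.60, edgeR adjusted p = 0.827) in FL1 mice, and the interaction was -1.37 (SE 0.77, edgeR adjusted p = 1.00). The call in ctrl mice was lost in 6 of 10 fits that left out a mouse (adjusted p up to 0.0862), with limma-voom (adjusted p = 0.1001), with all 20 mice in one fit (adjusted p = 0.0733) and with the replicate block (adjusted p = 0.0591).

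The medians of these lists over both lines for stage were -0.34 for natriuretic peptide and cyclic GMP signaling (9 tested), -0.18 for guanine nucleotide synthesis (13 tested, 1 called lower), 0.11 for the junction genes (7 tested), -0.01 for the phosphodiesterases (12 tested) and -0.06 for the LH and EGF-like response (5 tested). For the line effect over both stages the medians were 0.16, -0.04 with 2 called lower, -0.05 with 1 called lower, -0.02 and 0.24. The median of all genes tested was 0.0064 for stage, with 3.47% called, and 0.0088 for line, with 1.17% called.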

How the data were processed

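Transcripts of GCs were counted in 20 mice, 5 per line and stage. After trimming, the authors aligned the reads with STAR 2.6.0a to GRCm38 (Ensembl 95), and they deposited raw counts per gene without normalization. RNA extraction is described as TRIzol in the labels and with a column kit in the paper's methods. Of all reads, 48.9% to 58.4% were counted on genes and 23.2% to 32.8% had several matches and were left out.

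Genes were kept by edgeR's filter (minimum count 10, total 15, share 0.7), normalized by TMM and tested by quasi-likelihood in R 4.3.3 with edgeR 4.0.16. Lines were compared within each stage and stages within each line (10 mice each), and over all 20 mice with the other factor in the model. Alternatives were DESeq2 1.42.0, limma-voom (limma 3.58.1) with sample weights, RLE size factors, no filter, all 20 mice in one fit, robust estimation, the replicate number as a block, each mouse left out, and marker sums as covariates. Log2 CPM values have a prior count of 2. Copies were found with BLAST 2.17.0 (last 500 bases of a transcript, at least 90% identity over 250 bases). The fitting was tested on simulated data.

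The genes and lists were chosen with earlier results of these data known, and the motifs and covariates after values had been seen. Named are all 9 members, every called gene of a list, the 3 genes most like Nppc, Npr2 and Gja1, and overlapping genes and copies. Nothing says that the mice came from separate litters or cages.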

Additional observations from a re-analysis of the deposited data

Results flagged for a closer look

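In each group of 5 mice the highest and the lowest value were compared with the rest by Dixon's ratio, the gap to the nearest mouse over the whole range, with a critical value of 0.71. Of 36 groups of a gene, 3 held such a mouse, all among ctrl mice in diestrus, and chance alone marks about 1 in 20 groups. For Gja4 ctrl replicate 2 had 87.4 CPM and the next mouse 36.1 CPM, a ratio of 0.756, and the oocyte markers of this mouse summed to 502 CPM. Without it the stage effect of Gja4 in ctrl mice was -0.98 in place of -0.47, and neither was called. For Kitl ctrl replicate 1 had 82.3 CPM (460 reads) and the next mouse 14.0 CPM, a ratio of 0.832. For Pde4d ctrl replicate 3 had 0.802 CPM, which is 6 reads, and the other 4 mice had none.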

How the results depend on the processing

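Of 376 recomputed log2 fold changes of the 9 genes (other than by leaving out mice) 353 kept their direction and their side of the threshold, and of 800 that left out 1 mouse 740 did. The called genes of the surrounding lists lost their call in 8 of 54 and in 14 of 120 such fits (Lhcgr, Gmpr and Pde7b), and the cause of the changes was not tested. In estrus DESeq2 and the fit with no filter on low counts called 1 gene between the lines, Kitl (-1.71 and -1.70, adjusted p = 0.0282 and 0.00550), where the edgeR fit called 0. For stage in ctrl mice DESeq2 called 2 genes and all 20 mice in one fit 0, in place of 1, and leaving out 1 mouse gave 0 to 1. In FL1 mice the fit with no filter called 1 gene, Nppc. For stage over both lines leaving out 1 mouse gave 1 to 3 calls (Npr2 was added in 4 fits), and the fits with the stroma or the granulosa marker level as a covariate called 0 genes each in place of 2. Over all genes and the comparisons of lines or stages DESeq2 called 118 to 873 and edgeR 29 to 481 genes.

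The replicate numbers stand for different mice. Deviations of same-numbered mice from their group means correlated between -0.116 and 0.117, over 0.1 in 1 of 20 pairs, and 3 of 20 mice correlated best with their own number. With the replicate number as a block, stage in FL1 mice gave 1 call, Nppc (1.54, adjusted p = 0.0293), in place of 0, and the number of the 9 genes called in the other comparisons did not change. Over all genes the block gave 58 calls in place of 100 for the lines in estrus and 13 in place of 32 in diestrus.

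Directions turned for the values that follow, none of which was called. Kitl between the lines in diestrus was 0.67 with limma-voom, 0.31 with the block and -1.26 to 0.89 without 1 mouse. Kitl for stage in FL1 mice was 0.00116 with all 20 mice in one fit and -0.43 to 0.24 without 1 mouse. Impdh2 for stage in FL1 mice was -0.69 with limma-voom, -0.26 with the block and -0.20 to 0.43 without 1 mouse. Impdh1 between the lines over both stages was 0.000766 with DESeq2, 0.000288 with RLE size factors and -0.081 to 0.085 without 1 mouse. Impdh1 for stage over both lines was -0.052 with the granulosa covariate and -0.039 to 0.128 without 1 mouse. With limma-voom the interaction was -0.31 for Nppc, -0.00177 for Gja4 and -0.20 for Pde4d. Without 1 mouse it was -0.10 to 0.55 for Nppc, -0.054 to 0.529 for Npr2, -0.44 to 0.58 for Gja4 and -0.75 to 3.64 for Pde4d. Between the lines in diestrus the range without 1 mouse was -0.38 to 0.20 for Nppc, -0.39 to 0.10 for Npr2, -0.05 to 0.96 for Gja4 and -0.057 to 0.881 for Impdh2. For Impdh2 it was -0.74 to 0.00627 in estrus and -0.24 to 0.21 over both stages. For Pde4d, Npr3 and Impdh2 the low counts limit what could be seen. For Impdh2 the near-identical copy Impdh2-ps does so too, since reads with several matches were left out.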

Other observations

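Npr1, the receptor of the related atrial peptide, was picked out here after its values had been seen. It had means of 22.3 ± 10.6 CPM in FL1 and 7.35 ± 5.49 CPM in ctrl mice in estrus, and of 6.02 ± 4.86 and 3.54 ± 3.24 CPM in diestrus (SD, n = 5). Its line effect in estrus was 1.60 (SE 0.53, edgeR adjusted p = 0.211) and was not called. No read was counted on Nppa or Nppb, the genes of the other natriuretic peptides, in any mouse.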
